A study of Mus musculus with 12 samples.

Results

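The 9 spleens of mice given busulfan were compared with the 3 spleens of mice given saline only, and all 12 spleens of the series were used. The groups were taken from the agent that each sample label names. All mice were males of the ICR stock, which is outbred, entered the experiment at 3 weeks of age and were sampled at 8 weeks. The Con-sa mice (n = 3, agent labelled Blank) received saline. The other 9 mice received a single injection of busulfan at 40 mg/kg and were then given saline (B-sa, n = 3), small intestine contents of control donors (B+Con-FMT, n = 3) or small intestine contents of donors dosed with alginate oligosaccharide at 10 mg/kg (B+A10-FMT, n = 3). Transfer lasted 2 weeks, and the contents of the donors of each kind were pooled, so that each transfer arm stands for 1 donor pool. Values given for mice with Con-FMT or with A10-FMT are those of the B+Con-FMT and B+A10-FMT arms, which also had busulfan. No group received a transfer without busulfan. A change seen in all 3 busulfan arms is therefore one seen after the drug whatever was given next, and the question was which genes showed one.

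Busulfan is an alkylating drug that crosslinks DNA, is used against leukemia and before hematopoietic cell transplantation, and is most toxic to dividing blood cell precursors. The white pulp of the mouse spleen holds T and B lymphocytes. Its red pulp holds macrophages, developing red cells, blood-filled sinuses and most of the natural killer (NK) cells, which patrol for infected or altered cells. DNA damage is known to stabilize the transcription factor p53, which switches on genes for cell cycle arrest and repair.

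Values were RPKM, the read number of a transcript scaled to its length and to the mapped reads of the library, summed over the transcripts of each gene. Of 18221 genes, 12671 reached an RPKM of 1 in 3 or more mice, and limma was run on their log2(RPKM + 1). The adjusted p over all genes tested had to be under 0.05 for a call, and fold changes are on the log2(RPKM + 1) scale, which understates the change of genes with an RPKM near or below 1. Read counts are not given. An estimate of relative depth from values taken as 1 read gave 99.2% to 100.7% of the mean of the 12 libraries. Whether those values stood for 1 read was not tested, so nothing is read from that estimate about depth. Defining spleen genes were present in every mouse, such as Cd79a of B cells (529.5 to 745 RPKM), Spic of red pulp macrophages (44.6 to 81.0 RPKM) and Tlx1 of spleen stroma (12.6 to 21.6 RPKM). In whole spleens, fewer cells of a type and less RNA per cell cannot be told apart. The labels do not say more of the mice than that they were separate samples, so the p-values measure the spread between these 12 samples.

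Compared with Con-sa, the 3 busulfan arms together had 237 genes higher (1.87% of those tested) and 534 genes lower (4.21%). At an unadjusted p under 0.05 there were 3224 genes (25.4%). Most changes were small, with a median size of 0.27 on the log2 scale over the called genes. With median-of-ratios scaling in place of the deposited RPKM, 480 genes were higher and 364 lower, so that the balance of directions depended on the scaling. All 9 busulfan mice lay above all 3 Con-sa mice for 219 of the genes tested (1.73%) and below them for 501 (3.95%), and 119 of the higher and 308 of the lower called genes were among these. The counts depended on each Con-sa mouse. With Con-sa replicate 1 left out there were 38 higher and 98 lower, with replicate 2 left out 24 and 124, and with replicate 3 left out 58 and 147.

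Taken 1 at a time against the same 3 Con-sa mice, the B-sa arm had 599 genes higher and 1239 lower, the B+Con-FMT arm 292 and 832, and the B+A10-FMT arm 15 and 37. These 3 comparisons share their Con-sa mice. The arm with the fewest calls limited the number of genes called in each arm, which was 25. Of these, 4 were higher (0.0316% of the genes tested) and 21 were lower (0.166%). In 24 of the 25 the busulfan and Con-sa mice did not overlap, the exception being Keg1, in which B+Con-FMT replicate 3 (1.37 RPKM) lay above Con-sa replicate 2 (1.26 RPKM). Of the 25, 9 genes (Klra3, Klra23, Gm4724, Gm14305, Gm14434, Slc34a1, Cltrn, Keg1 and Samd3) had an RPKM of 1 in fewer than 3 busulfan mice, and so were tested only because the Con-sa mice were high. All 25 stayed called in the comparison of the 9 mice with any busulfan mouse or arm left out. With a Con-sa mouse left out, 22 to 24 of them did. The numbers called in each arm were less stable. They were 0 higher and 1 lower without B+A10-FMT replicate 1, and 0 and 8 without B+A10-FMT replicate 2. Without Con-sa replicate 1, 2 or 3 they were 0 and 4, 0 and 16, and 1 and 5.

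**Figure D1:**
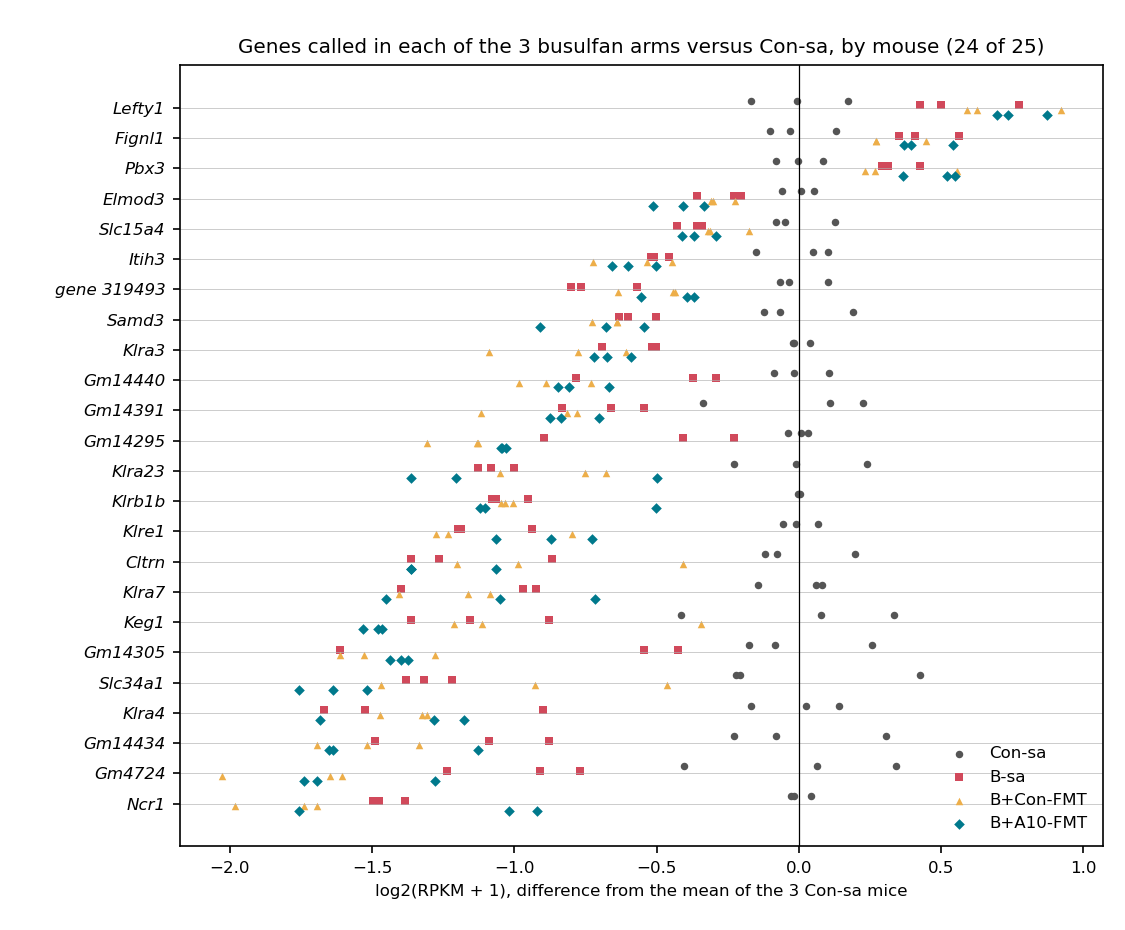
Difference of log2(RPKM + 1) of each mouse from the mean of the 3 Con-sa mice (x axis) for 24 of the 25 genes called in each of the 3 busulfan arms (rows), with 1 point per mouse and a symbol per group. Lefty1, Fignl1 and Pbx3 lie to the right of the Con-sa mice, and Ncr1 at the bottom lies farthest to the left.

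NK cell genes made up the largest group among the genes lower in each arm. Ncr1, which encodes the activating receptor NKp46 and marks NK cells, had 12.7, 13.3 and 12.6 RPKM in the Con-sa mice. It had 4.31, 3.99 and 3.91 RPKM in B-sa, 3.15, 2.51 and 3.29 with Con-FMT and 3.10, 5.85 and 6.32 with A10-FMT. The highest busulfan mouse was thus below the lowest Con-sa mouse, and the log2 fold change was -1.50 ± 0.14 (SE, adjusted p = 0.00069; exact two-sided permutation p = 0.0045, the smallest that 220 splits of 9 and 3 mice allow). Its fold changes of -1.45 in B-sa, -1.80 with Con-FMT and -1.23 with A10-FMT did not differ past the threshold among the arms (F test, adjusted p = 0.0912). Klre1, a killer lectin-like receptor of NK cells, had 5.77, 5.22 and 5.43 RPKM in Con-sa and between 1.67 and 2.91 (median 2.09) in the 9 busulfan mice, a log2 fold change of -1.03 ± 0.11 (adjusted p = 0.00069). Klra4, a Ly49 receptor that recognizes MHC class I molecules, had 5.74, 5.21 and 4.44 RPKM in Con-sa and between 0.90 and 2.27 (median 1.44) after busulfan. Its 3 arms had nearly the same log2 fold change, -1.37 in B-sa, -1.37 with Con-FMT and -1.38 with A10-FMT.

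The remaining receptors of this kind called in each arm were Klrb1b (log2 fold change -0.99), Klra3 (-0.69), Klra7 (-1.13) and Klra23 (-0.97). Klrb1b was the most even in Con-sa, with 3.82, 3.85 and 3.83 RPKM, against 1.22 to 2.41 RPKM in the busulfan mice. Of the 29 tested genes of a list for NK and cytotoxic lymphocytes, 18 were lower (62.1%, against 4.21% of all genes tested) and 0 higher, 16 did not overlap between busulfan and Con-sa mice with busulfan below (against 3.95% of all genes), and 5 were lower in each arm (against 0.166%). Of the 29, 2 passed the filter only through the Con-sa mice, and 16 of the other 27 were lower. The arms differed for 7 of the 29 (F test, against 10.2% of all genes). The list median was -0.59 on the log2 scale, against -0.03 over all genes tested, and was -0.57 in B-sa, -0.72 with Con-FMT and -0.37 with A10-FMT. Summed over the list, RPKM came to 341.5 to 364 in Con-sa, against 209 to 243 in B-sa, 242 to 274 with Con-FMT and 248 to 286 with A10-FMT.

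Beyond the receptors, the called members included Gzma, which encodes the secreted protease granzyme A, with 50.8, 55.5 and 47.2 RPKM in Con-sa and 9.84 to 28.5 RPKM (median 16.3) after busulfan, a log2 fold change of -1.52 ± 0.23 (adjusted p = 0.0105). Eomes, a transcription factor needed for NK cell maturation, fell by 0.59 on the log2 scale (adjusted p = 0.00282), and Prf1, which encodes the pore-forming protein perforin, fell by 0.33 (adjusted p = 0.0335). With Con-sa replicate 1, 2 or 3 left out in turn, 12, 11 and 11 genes of the list were lower, and 11 were with the 9 busulfan mice taken as 1 group. Of 31 T cell genes tested, 1 was higher (Lat, an adaptor of T cell receptor signalling, log2 fold change 0.38, adjusted p = 0.0499) and 0 lower, against 1.87% and 4.21% of all genes, with a list median of 0.13. Lat lost its call in 14 of 24 alternatives.

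Most of the killer lectin receptor genes called in each arm lie side by side. Klra23, which the reference coordinates place elsewhere on chromosome 6, was left out. The stretch from the first to the last of the other 5 (GRCm38, chr6:128813706-130337626, chosen after the values were seen) held 26 tested genes. Of these, 13 were lower and 0 higher, against 4.21% and 1.87% of all genes. Nothing is read from that count, since the stretch was drawn around 5 genes lower in each arm, which it includes, and Klra3 passed the filter only through the Con-sa mice. Other genes in the stretch were mixed. Clec2i, a C-type lectin gene, was lower (log2 fold change -0.47, adjusted p = 0.0142), whereas Clec2g (-0.32), Clec1b (0.27), Clec12a (0.31), Cd69 (0.01) and Gabarapl1 (0.00) were not called, and nor were the receptor genes Klra17 (-0.31), Klri1 (-0.08), Klrc1 (-0.08) and Klrc2 (0.01). Members of this family resemble each other. The share of 50-base words of the transcript that also occur in transcripts of other genes was 29.0% for Klrb1b, 21.5% for Klra3, 14.7% for Klra7, 4.7% for Klra4 and 1.0% for Klre1, and reads may have been divided between such copies. Ncr1 lies on chromosome 7 and shared no such words. The ICR stock is outbred, and the part of genotype in the falls of the killer lectin receptor genes was not tested. With so few Con-sa mice, genotype and group cannot be told apart for these genes.

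The sequences before the start sites of Ncr1 and Klre1 are shown because both genes fell in every arm and their letters can be compared. They come from RefSeq (GRCm38.p6) and cover the 250 bases before the annotated start, at chr7:4337465-4337714 (plus strand) for Ncr1 and chr6:129577963-129578212 (plus strand) for Klre1. Capitals mark the core TGTGGT, or its reverse complement, which is the core that RUNX factors, known regulators of lymphocyte genes, can bind.
Ncr1: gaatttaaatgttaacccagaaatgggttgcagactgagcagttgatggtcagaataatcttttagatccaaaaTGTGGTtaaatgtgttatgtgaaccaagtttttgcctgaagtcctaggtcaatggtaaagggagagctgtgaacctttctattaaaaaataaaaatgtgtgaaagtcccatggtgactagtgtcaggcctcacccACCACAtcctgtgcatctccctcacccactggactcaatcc
Klre1: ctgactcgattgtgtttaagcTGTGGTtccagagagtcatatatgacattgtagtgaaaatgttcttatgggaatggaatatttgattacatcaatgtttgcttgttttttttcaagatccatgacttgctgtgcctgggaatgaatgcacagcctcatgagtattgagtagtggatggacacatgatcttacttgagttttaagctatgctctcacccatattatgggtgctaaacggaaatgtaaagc
Searched on both strands, the core occurred in 8 of the 16 lower NK list genes that have a promoter window and in 13.4% of the tested genes with one. Some of these receptor genes are copies of each other and share their upstream letters, and a match is a description of the letters only.

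**Figure D2:**
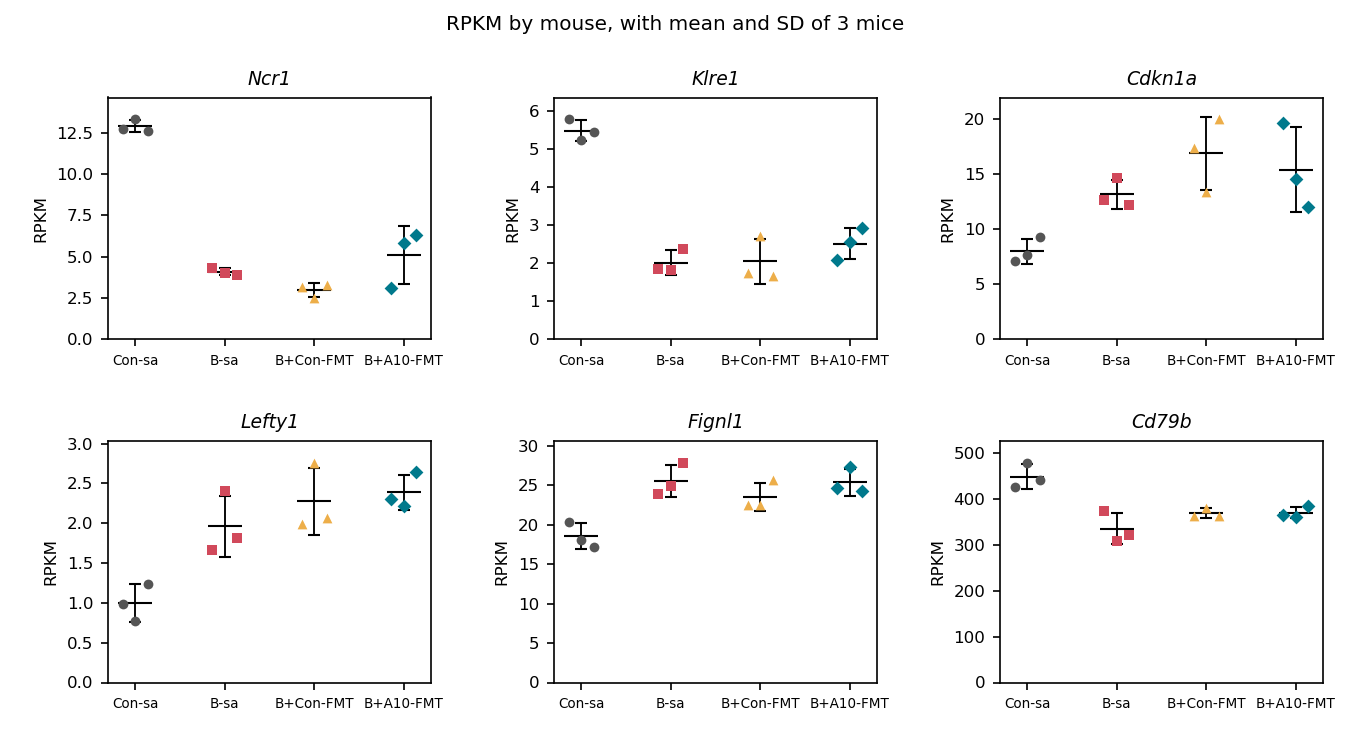
RPKM of 6 genes by group (x axis), with 1 point per mouse, the mean as a line and the SD of 3 mice as a bar. For Ncr1, Klre1 and Cd79b every busulfan mouse lies below every Con-sa mouse, and for Cdkn1a, Lefty1 and Fignl1 every busulfan mouse lies above.

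The second group among the 25 genes was a cluster of zinc finger genes near the end of chromosome 2, which encode putative DNA-binding proteins of little known function. Gm14295, the most abundant, had 10.9, 10.7 and 10.3 RPKM in Con-sa, 8.92, 7.75 and 5.24 in B-sa, 4.31, 3.69 and 4.30 with Con-FMT and 4.69, 4.63 and 4.62 with A10-FMT. It was lower in each arm (log2 fold change -0.91 ± 0.11, adjusted p = 0.00113) and also differed among the arms (F test, adjusted p = 0.0172), with B-sa nearest to Con-sa. Gm4724 had 2.08 to 4.17 RPKM in Con-sa and 0 to 1.39 in the busulfan mice (log2 fold change -1.44 ± 0.16), and Gm14434 had 1.76 to 3.0 and 0 to 0.76 RPKM (-1.38 ± 0.16). Gm14305 (-1.25), Gm14391 (-0.80) and Gm14440 (-0.71) were also lower in each arm. In the stretch that they span (GRCm38, chr2:175185165-176814092, chosen after the values were seen), 14 genes were tested. Of these, 8 were lower, against 4.21% of all genes, among them the 6 that defined the stretch. Since 7 of the 14 passed the filter only through the Con-sa mice, nothing is read from that count.

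Most of these genes have near-identical copies, and their values are uncertain for that reason. All 50-base words of Gm14434, Gm14440 and Gm4724 (100%), 89.1% of those of Gm14305 and 73.8% of those of Gm14295 occur in transcripts of other genes, so that reads could not be assigned to 1 copy with certainty. Gm14391 shared 12.2% of its words. The genes are also alike around their start sites. The stretch below, which RefSeq (GRCm38.p6) places upstream of Gm14434 at chr2:176486770-176486849 (minus strand), is identical over 80 bases in Gm4724 (chr2:175435798-175435877, minus strand), Gm14305 (chr2:176708245-176708324, plus strand) and Gm14440 (chr2:175275024-175275103, plus strand), and it is shown for that identity.
Gm14434: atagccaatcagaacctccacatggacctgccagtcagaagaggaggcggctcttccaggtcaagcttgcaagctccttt
It was held whole by 11 of 32851 promoter windows. The best match in Gm14295 and in Gm14391, which runs across the annotated start, had 78 of the 80 bases. The ICR stock is outbred and copies of such genes can differ between animals. The part of genotype in this difference was not tested, and with 3 Con-sa mice genotype and group cannot be told apart.

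In the p53 and crosslink repair lists, Cdkn1a showed the largest rise. It encodes p21, an inhibitor of cyclin-dependent kinases and a classic p53 target. Cdkn1a had 7.09, 7.67 and 9.27 RPKM in Con-sa, 12.6, 14.7 and 12.2 in B-sa, 17.4, 13.3 and 19.97 with Con-FMT and 19.6, 14.6 and 12.04 with A10-FMT. Every busulfan mouse was above every Con-sa mouse (log2 fold change 0.83 ± 0.14, adjusted p = 0.0114; exact two-sided permutation p = 0.0045). It was called in B-sa (0.66) and B+Con-FMT (0.98) and not in B+A10-FMT (0.85, adjusted p = 0.0729), and the arms did not differ past the threshold (adjusted p = 0.369). Phlda3, a p53 target that restrains Akt signalling, had 7.47, 5.93 and 7.13 RPKM in Con-sa and 8.19 to 12.4 (median 10.02) after busulfan (log2 fold change 0.49 ± 0.09, adjusted p = 0.0112). They were the 2 genes called among 27 tested p53 targets (7.41%, against 1.87% of all genes higher), whose median was 0.04, and 10 of the 27 had an unadjusted p under 0.05 (against 25.4% of all genes). Without Con-sa replicate 1, 2 or 3, the number called was 1, 0 and 2.

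The Cdkn1a promoter is shown because it holds a p53 site in the 250 bases before the start (RefSeq, GRCm38.p6, chr17:29090729-29090978, plus strand). Capitals mark the site, at -51 to -32 from the start, found on either strand as the 20-base p53 consensus without a spacer and with at most 1 mismatch.
Cdkn1a: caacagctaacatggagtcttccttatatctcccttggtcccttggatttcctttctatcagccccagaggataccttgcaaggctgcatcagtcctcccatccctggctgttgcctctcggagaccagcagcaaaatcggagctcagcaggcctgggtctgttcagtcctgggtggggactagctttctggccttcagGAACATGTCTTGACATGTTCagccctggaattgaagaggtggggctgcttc
Such a site occurred in 7 of the 10124 tested genes with a promoter window (0.0691%) and in 2 of the 19 p53 list genes with one.

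Of 29 crosslink repair genes tested, 5 were higher (17.2%, against 1.87% of all genes) and 1 lower (3.45%, against 4.21%). Among the higher genes were Brca1 (0.28), Eme1 (0.27), a subunit of a structure-specific nuclease, and Fancl (0.23), the ubiquitin ligase of the Fanconi pathway. Fanca, a subunit of the Fanconi core complex, was lower (-0.28). Fignl1, which encodes an ATPase that takes part in recombination repair and was not in the list, was higher in each arm, with 20.4, 18.1 and 17.2 RPKM in Con-sa and 22.5 to 27.9 (median 24.6) after busulfan (log2 fold change 0.40 ± 0.07, adjusted p = 0.00702). The higher members of the repair list numbered 3, 1 and 1 without Con-sa replicate 1, 2 or 3, 2 without the B+Con-FMT arm, and 1 without the B-sa arm or with the 9 mice as 1 group.

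Of 34 cell cycle genes tested, 13 were higher (38.2%, against 1.87% of all genes) and 0 lower, 34 had a positive log2 fold change (against 5288 of 12671 genes), and the median was 0.19. Plk1, a kinase of mitosis, had 31.6, 31.8 and 31.4 RPKM in Con-sa and 33.7 to 47.6 (median 39.97) after busulfan (log2 fold change 0.33 ± 0.06, adjusted p = 0.0111). Mcm4, a subunit of the replicative helicase, had 59.9, 57.5 and 55.3 RPKM and 63.3 to 73.6 (0.22 ± 0.05), and neither gene overlapped between busulfan and Con-sa mice. The median of the list was 0.31 in B-sa, 0.11 with Con-FMT and 0.15 with A10-FMT. The calls in this group depended on each Con-sa mouse, and 0, 0 and 1 of the 34 were called without replicate 1, 2 or 3. With a busulfan mouse left out 5 to 17 were called, without the B-sa arm 1, and with the 9 busulfan mice as 1 group limma called 0. With values scaled to equal totals outside the globin genes, 5 were called.

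Mouse spleens express erythroid genes because red cells develop there. Of 31 tested, 5 were higher (16.1%, against 1.87% of all genes) and 0 lower, 31 had a positive log2 fold change, and the median was 0.18. Gata1, the master transcription factor of red cell development, had 61.8, 55.7 and 66.5 RPKM in Con-sa and 67.7 to 90.1 (median 77.2) after busulfan (log2 fold change 0.34 ± 0.06, adjusted p = 0.0121). Tfr2 (0.36) and Tfrc (0.30), the transferrin receptors, were higher in all 9 mice, and Uros, an enzyme of heme synthesis, was among the called members. Tfrc lost its call in 17 of 24 alternatives and Tfr2 in 8 of 24. Of the 31 erythroid genes, 0, 0 and 2 were called without Con-sa replicate 1, 2 or 3. The number was 14 without B-sa replicate 1 and 1 to 4 with any other busulfan mouse left out, 0 without the B-sa arm, and 0 by limma with the 9 mice as 1 group. Of 25 neutrophil and granulocyte precursor genes, 0 were called by limma, 17 had an unadjusted p under 0.05 (against 25.4% of all genes), 24 had a positive log2 fold change (against 5288 of 12671) and the median was 0.70. This count depended on the mice included, since 7 of the 25 were higher without B+A10-FMT replicate 3 and 12 without the B+A10-FMT arm. Summed, they came to an RPKM of 2381 to 2472 in Con-sa, against 4205 to 6906 in B-sa, 2721 to 3951 with Con-FMT and 2366 to 5799 with A10-FMT, so that busulfan mice were far more spread than Con-sa mice.

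Of 27 B cell genes tested, 12 were lower (44.4%, against 4.21%) and 0 higher, 27 had a negative log2 fold change (against 7383 of 12671 genes), 11 did not overlap between busulfan and Con-sa mice (against 3.95% of all genes below), and the median was -0.23 (-0.31 in B-sa, -0.24 with Con-FMT and -0.21 with A10-FMT). Cd79b, a signalling subunit of the B cell receptor, had 425.5, 479 and 442 RPKM in Con-sa and 309 to 384 (median 364) in the busulfan mice, all below Con-sa (log2 fold change -0.33 ± 0.06, adjusted p = 0.00882). Blk, a kinase of B cell receptor signalling, had 84.2, 85.8 and 85.1 RPKM and 58.6 to 76.3 (-0.34 ± 0.05, adjusted p = 0.0037). Cd22, a receptor that dampens that signalling, had 165, 175 and 170 RPKM and 109 to 151 (-0.39 ± 0.07). Summed over the list, RPKM came to 3721 to 4078 in Con-sa and 2871 to 3532 over the busulfan mice. Leaving out Con-sa replicate 1, 2 or 3 left 5, 1 and 6 of the 27 called, leaving out a busulfan mouse 8 to 16, and taking the 9 mice as 1 group 4.

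Of 15 tested genes of MHC class II presentation, a function of B cells and dendritic cells, 3 were lower (20%, against 4.21% of all genes) and 13 had a negative log2 fold change. Without Con-sa replicate 1, 2 or 3, the number lower was 1, 0 and 1, and it was 7 without B-sa replicate 1 or without the B+A10-FMT arm. H2-Ob, a B cell subunit that tunes peptide loading, had 122, 131 and 127 RPKM in Con-sa and 83.2 to 113 after busulfan (log2 fold change -0.42 ± 0.08, adjusted p = 0.0139). Ciita, the master activator of the class II genes (-0.34), and Cd74, the invariant chain (-0.23), were lower as well. Of 38 chromatin regulator and large nuclear genes, 11 were lower (28.9%, against 4.21% of all genes) and 0 higher, with a median of -0.16. Arid1a, a subunit of the SWI/SNF remodelling complex, had 49.7, 49.3 and 51.0 RPKM in Con-sa and 37.6 to 47.2 after busulfan (-0.22 ± 0.04, adjusted p = 0.013). The genes lower after busulfan had a median transcript length of 4484 bases and the higher ones 2436.5 bases, against 3318 bases over all genes tested. With the trends along length and GC content removed from each mouse, 215 genes were higher and 514 lower, and 4 members of the chromatin list were lower. In turn 0, 1 and 0 chromatin genes were called without Con-sa replicate 1, 2 or 3, 5 to 16 with a busulfan mouse left out, 1 without the B-sa arm, 21 without the B+A10-FMT arm and 0 by limma with the 9 mice as 1 group.

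**Figure D3:**
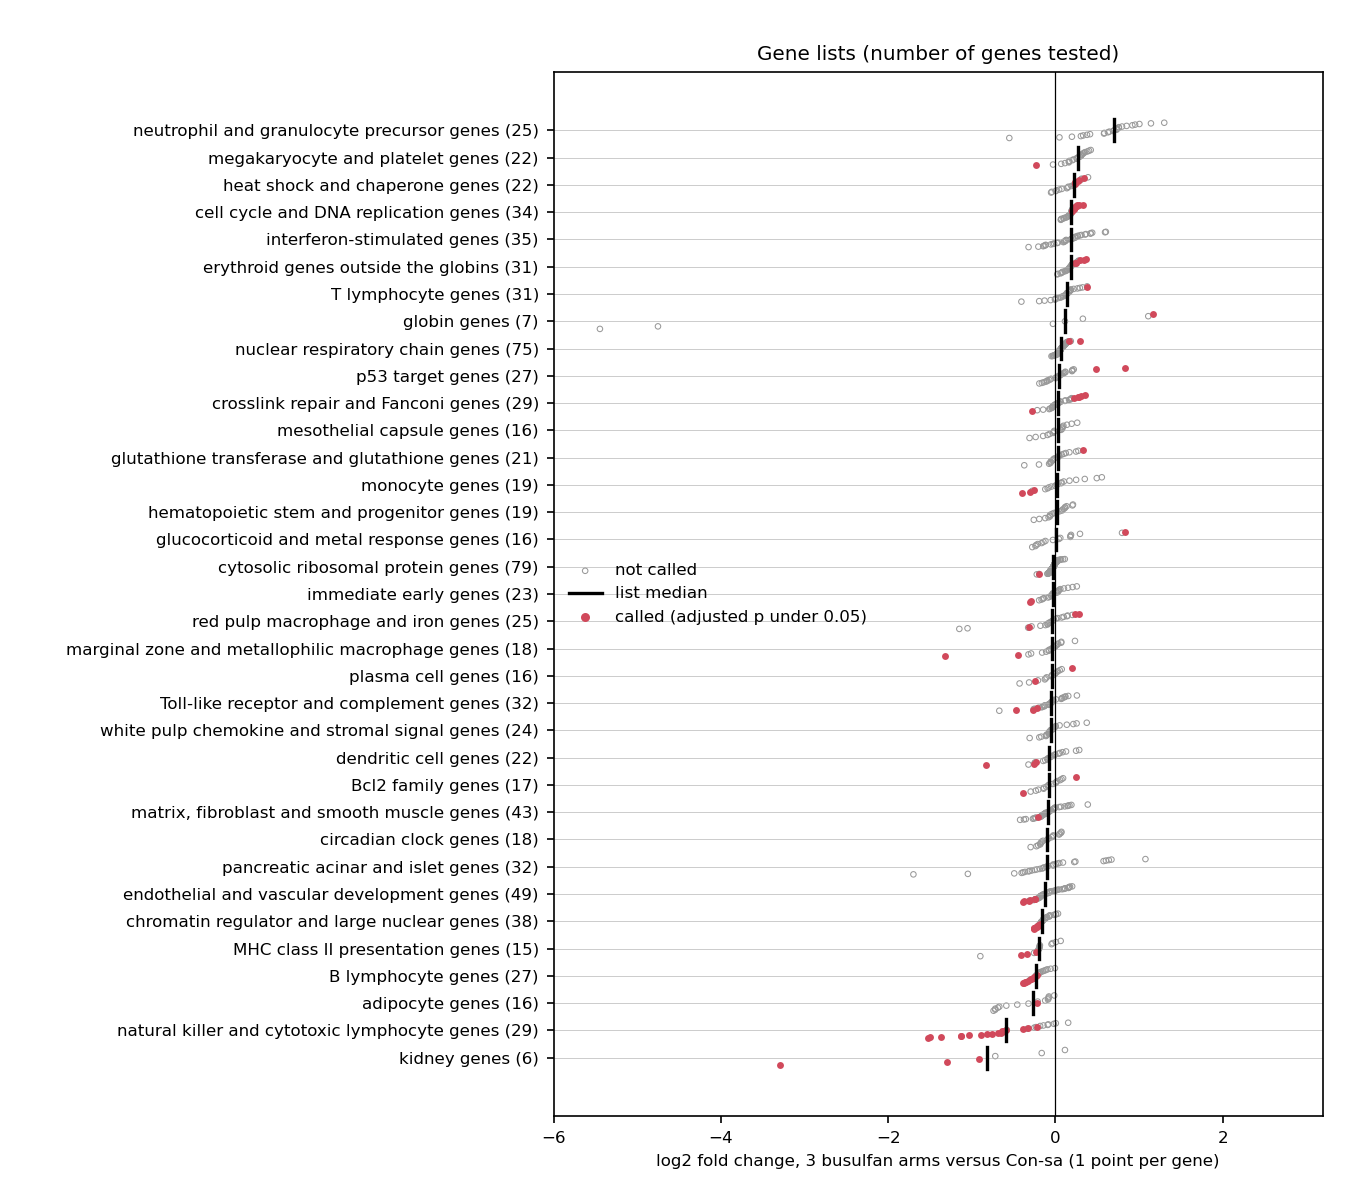
Pooled log2 fold change of the 3 busulfan arms against Con-sa (x axis) for every tested gene of 35 lists (rows, number tested in parentheses), with called genes as filled points and the list median as a bar. The NK and B cell lists lie to the left of 0, with medians of -0.59 and -0.23, and the cell cycle list to the right, with a median of 0.19.

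Outside the lists, the largest rises without overlap were in genes of varied function. Lefty1, a secreted inhibitor of Nodal signalling, was higher in each arm, with 0.98, 0.77 and 1.24 RPKM in Con-sa and 1.67 to 2.76 (median 2.22) after busulfan (log2 fold change 0.68 ± 0.10, adjusted p = 0.00497). Pbx3, a homeobox transcription factor, was also higher in each arm (4.22 to 4.86 RPKM in Con-sa, 5.49 to 7.11 after busulfan, 0.39 ± 0.08). Sphk1, the enzyme that makes sphingosine 1-phosphate, had 12.7 to 15.3 RPKM in Con-sa and 15.99 to 27.9 after busulfan (0.52 ± 0.08) and differed among the arms (F test, adjusted p = 0.0418). Its mean fell in order from B-sa (24.7 ± 3.0 RPKM, SD, n = 3) to B+Con-FMT (20.6 ± 1.2) and B+A10-FMT (18.2 ± 1.9). Other rises were in Wfdc21 (0.99), Gdf3 (0.78), a TGF-beta family ligand, H1f2 (0.62), a linker histone, Gca (0.53), a calcium-binding protein of granulocytes, Alox5 (0.51), the 5-lipoxygenase of leukotriene synthesis, Mmp2 (0.45), a matrix metalloproteinase, and Clybl (0.42).

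Among macrophage genes, Cd209d, a C-type lectin of marginal zone macrophages, had 7.68, 8.20 and 9.98 RPKM in Con-sa and 1.02 to 3.77 (median 3.10) after busulfan, with no overlap (log2 fold change -1.32 ± 0.19, adjusted p = 0.00687). Abca1, a cholesterol exporter, had 11.2 to 12 and 7.28 to 9.25 RPKM (-0.45 ± 0.06, adjusted p = 0.00422). They were the 2 members called among 18 tested genes of marginal zone and metallophilic macrophages (11.1%, against 4.21% of all genes lower), whose median was -0.04. Further genes lower in each arm were Samd3 (-0.65), Itih3 (-0.55), Slc15a4 (-0.33), a lysosomal histidine and peptide transporter, Elmod3 (-0.32), and a gene for which the reference gives no symbol (identifier 319493, -0.55). LOC108167383 (-1.59) was lower without overlap.

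One chromosome 7 region carried the widest differences, and there mice of the same arm differed from each other. Inbred mouse strains carry either the beta-globin genes Hbb-bs and Hbb-bt or the alternative pair Hbb-b1 and Hbb-b2, and an outbred stock can hold both. Hbb-bs had 25330, 45902 and 20290 RPKM in Con-sa and 30.5, 17.3 and 9.20 in B-sa. It had 36.4, 20930 and 4024.5 RPKM with Con-FMT and 8916, 13234 and 10623 with A10-FMT, and it was not called (adjusted p = 0.0824). Hbb-b1 had 35832, 15053 and 37780 RPKM in Con-sa and 42544 to 87642 after busulfan, and it was called (log2 fold change 1.17 ± 0.27, adjusted p = 0.0408). Hbb-b1 lost its call in 14 of 24 alternatives. The sum of the 4 beta-globin genes was 71143 to 74808 RPKM in Con-sa, against 85841 to 105833 in B-sa, 79988 to 93428 with Con-FMT and 64756 to 83265 with A10-FMT, so that it varied far less than either gene alone.

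Trim genes, which encode antiviral and inflammatory regulators, lie next to the beta-globin genes. Between Hbb-bt and Trim30d (GRCm38, chr7:103812524-104507853, chosen after the values were seen), 10 genes were tested, 5 were lower (against 4.21% of all genes) and 1 higher (against 1.87%). Nothing is read from that count, since the called gene Trim30d ends the stretch and is among the 5. Trim30d had 3.94, 7.38 and 3.17 RPKM in Con-sa, 0.40, 0.54 and 0.27 in B-sa, 0.20, 2.03 and 0.85 with Con-FMT and 1.88, 3.71 and 2.16 with A10-FMT (log2 fold change -1.41 ± 0.28, adjusted p = 0.0227). Within B+Con-FMT, the mouse lowest for Hbb-bs, replicate 1, was also the lowest for Trim30d, and over all 12 mice Con-sa replicate 2 was the highest for both. Trim30b (-1.08), Trim5 (-0.75), Trim34a (-0.54) and Gm38525 (-0.84) were lower, and Trim12c was higher (0.59). Trim30a (-0.32) and Trim34b (-0.04) were not called. The part of beta-globin haplotype in these calls was not tested, and haplotype and group cannot be told apart with 3 Con-sa mice.

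**Figure D4:**
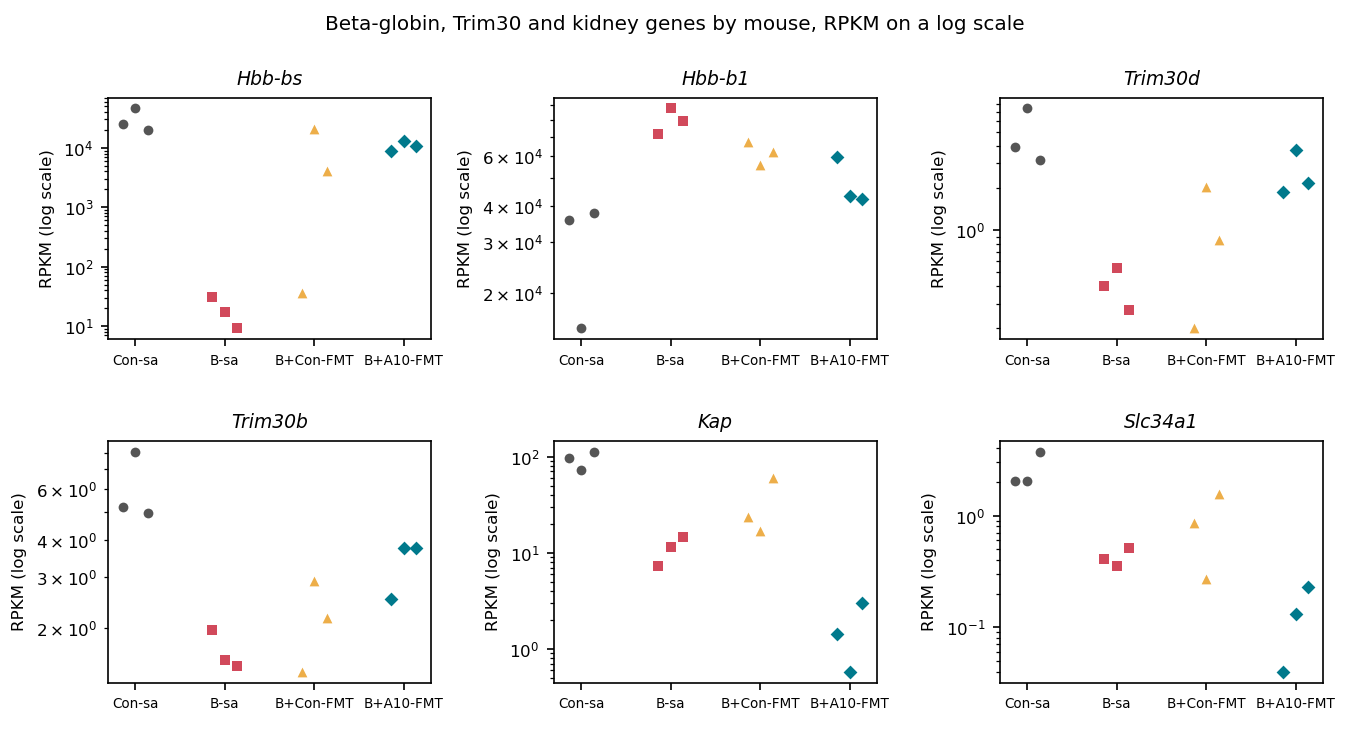
RPKM on log axes by group (x axis) for 2 beta-globin genes, 2 Trim genes and 2 kidney genes, with 1 point per mouse. Hbb-bs ranges from 9.20 to 45902 RPKM and the B-sa mice and 1 B+Con-FMT mouse lie at its foot, while Kap is 72.7 to 112 RPKM in Con-sa and lower in all busulfan mice.

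Several kidney genes were lower after busulfan although the samples were spleens. Kap, an androgen-regulated protein of the kidney proximal tubule, had 96.9, 72.7 and 112 RPKM in Con-sa, 7.23, 11.6 and 14.4 in B-sa, 23.3, 16.8 and 60.0 with Con-FMT and 1.43, 0.58 and 2.96 with A10-FMT. Its log2 fold change of -3.30 ± 0.41 (adjusted p = 0.00704; exact two-sided permutation p = 0.0091) was the largest fall among the genes called, and the arms differed (F test, adjusted p = 0.015). Slc34a1, the phosphate transporter of the proximal tubule, had 2.05, 2.02 and 3.73 RPKM in Con-sa and 0.04 to 1.55 after busulfan, lower in each arm (-1.30 ± 0.18). Cltrn (-1.10), a kidney transmembrane protein, and Keg1 (-1.17), a gene expressed in kidney, were lower in each arm too, and Miox (-0.91), a renal oxygenase, was lower in the 9 mice together. Of 16 kidney list genes, 6 passed the filter, Slc34a1 and Miox only through the Con-sa mice, so that no count over them is read. Keg1 and Cltrn, which were also tested for that reason alone, had 0.04 to 1.37 and 0 to 0.94 RPKM after busulfan. With an RPKM of at least 1 required in all 12 mice, 2 genes of the list were left and neither was called.

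The other kidney genes were mixed. Umod, which marks the loop of Henle, had 0.65 to 1.0 RPKM in Con-sa and 0 to 0.32 in the busulfan mice, and Slc22a6 0.42 to 0.71 and 0 to 0.24 RPKM. Nphs1 (0.43 to 0.54 RPKM in Con-sa, 0.26 to 0.90 after busulfan) and Pck1 (2.91 to 4.89 and 0.50 to 5.70) overlapped between the groups, as did Cubn and Slc12a3. Aqp2, of the collecting duct, was listed at 0 in 10 of the 12 mice. Aqp1 and Napsa, which spleen also expresses, gave most of the list's sum, 420 to 476 RPKM in Con-sa and 341.5 to 437 over the busulfan mice. For Kap, Slc34a1, Cltrn, Keg1, Miox, Umod and Slc22a6 the busulfan mouse with the highest value was B+Con-FMT replicate 3, and the B+A10-FMT arm had the lowest mean. The part of kidney tissue or RNA in these libraries was not tested. Pancreatic acinar genes, a sign of neighbouring pancreas, came to 1825 to 9847 summed RPKM in Con-sa. Their sum was 658 to 4706 for B-sa, 11460 to 18450 with Con-FMT and 634 to 13630 with A10-FMT, and 0 of 32 were called by limma, with 0 at an unadjusted p under 0.05.

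Some genes called in the pooled comparison were unequal among the arms. Of the 771 called genes, 197 (25.6%) also differed among the 3 busulfan arms, against 10.2% of all genes tested. Heat shock and chaperone genes were the clearest case. Of 22 tested, 7 were higher in the pooled comparison (31.8%, against 1.87% of all genes), but 18 of the 22 differed among the arms, and the list median was 0.59 in B+Con-FMT, 0.01 in B-sa and -0.04 in B+A10-FMT. Hsp90aa1, the inducible cytosolic Hsp90, had 652, 553 and 547 RPKM in B+Con-FMT, against 312 to 335 in Con-sa, while B-sa had 359 to 405 and B+A10-FMT 277 to 342.5 (F test among the arms, adjusted p = 0.000474). Stip1, its co-chaperone, had 145 to 153.5 RPKM in B+Con-FMT and 74.5 to 94.1 in the other 9 mice. Without the B+Con-FMT arm 0 of the 22 were called, and 0 were called when any Con-sa mouse was left out or the 9 mice were taken as 1 group. The acinar list also had its highest median in B+Con-FMT (1.81 on the log2 scale, against -1.25 in B-sa and -0.85 in B+A10-FMT), and the part of pancreatic tissue in the heat shock values was not tested.

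Endothelial genes showed another division. Of 49 tested, 6 were lower (12.2%, against 4.21% of all genes) and 0 higher, 21 differed among the arms (against 10.2% of all genes), and the list median was -0.21 in B-sa, -0.21 with Con-FMT and 0.03 with A10-FMT. Stab2, a scavenger receptor of sinus endothelium, had 15.97, 15.6 and 14.2 RPKM in Con-sa, against 9.71 to 11.2 in B-sa, 9.75 to 11.3 with Con-FMT and 14.95 to 16.1 with A10-FMT (F test, adjusted p = 0.00184). Busulfan mice without the A10 transfer were thus below Con-sa, and those with it overlapped Con-sa. Ptprb, a vascular phosphatase, was of the same form (5.88 to 6.35 RPKM in Con-sa, 3.28 to 4.28 in B-sa and B+Con-FMT together and 5.63 to 6.03 in B+A10-FMT). The number of endothelial genes called was 1, 2 and 3 without Con-sa replicate 1, 2 or 3, 10 without B-sa replicate 1, 19 without the B+A10-FMT arm, 1 and 2 without the B-sa and the B+Con-FMT arm, and 0 by limma with the 9 mice as 1 group.

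Other called genes were lower in every busulfan mouse and still unequal among the arms. Siglech, a marker of plasmacytoid dendritic cells, had 16.7, 15.4 and 16.3 RPKM in Con-sa, against 8.84 to 9.38 in B-sa, 5.39 to 6.21 with Con-FMT and 9.91 to 14.2 with A10-FMT (pooled log2 fold change -0.83 ± 0.08, adjusted p = 0.00069). Klri2, a killer lectin-like receptor, had 3.08 to 3.39 RPKM in Con-sa, against 0.94 to 1.29 in B-sa, 0.85 to 1.07 with Con-FMT and 1.98 to 2.67 with A10-FMT (-0.82 ± 0.08, adjusted p = 0.00069). Cd55, which restrains complement on cell surfaces, had 93.1 to 98.3 RPKM in Con-sa, 60.4 to 68.3 over B-sa and B+Con-FMT, with the 3 mice of B+A10-FMT at 77.7 to 82.5 (-0.48 ± 0.05, adjusted p = 0.00069). For these genes the B+A10-FMT mice lay between the Con-sa mice and the other busulfan mice. Of the higher genes, Pcna, the sliding clamp of replication, had 460 to 512 RPKM in B-sa, against 369 to 400 in Con-sa.

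**Figure D5:**
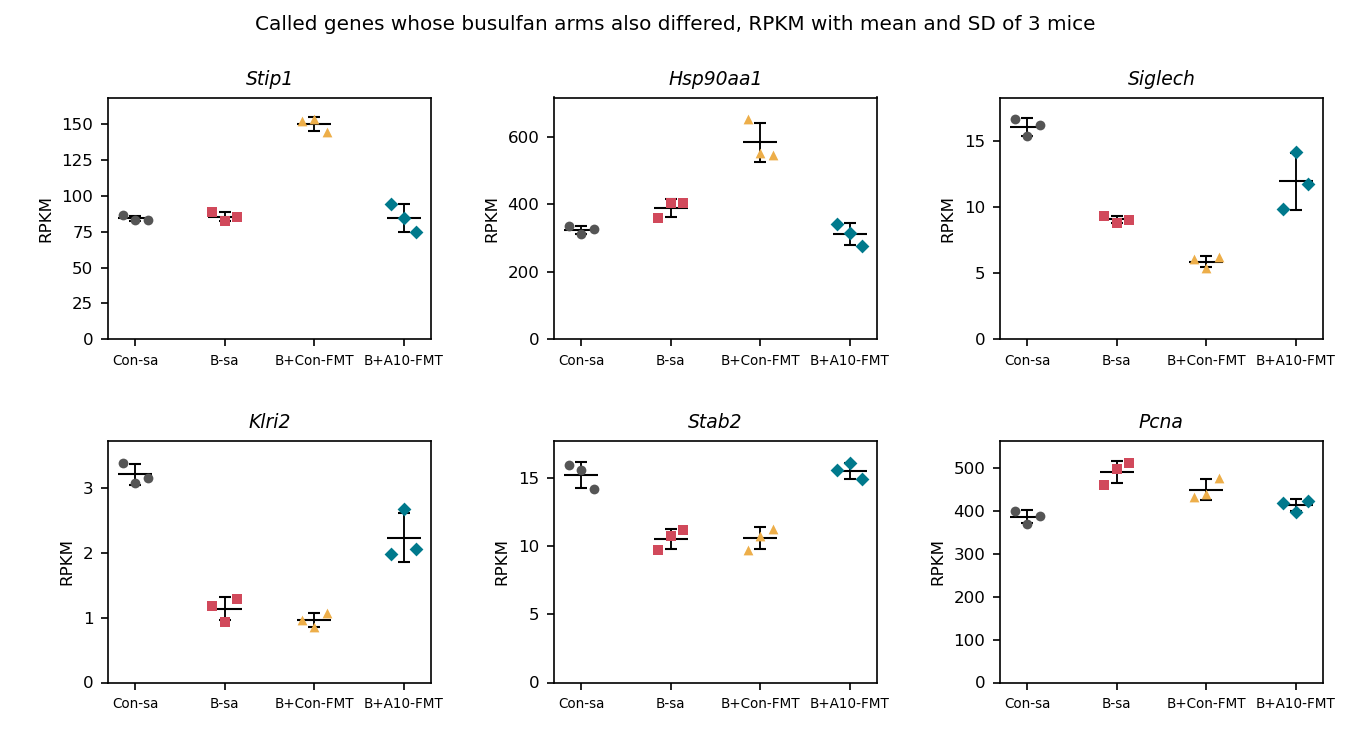
RPKM by group (x axis) of 6 genes called in the pooled comparison that also differed among the busulfan arms, with 1 point per mouse, the mean as a line and the SD of 3 mice as a bar. Stip1 and Hsp90aa1 are highest in B+Con-FMT, while Stab2 in B+A10-FMT lies at the level of Con-sa.

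The remaining lists had few or no calls, to be read against 1.87% of all genes higher, 4.21% lower and 25.4% with an unadjusted p under 0.05. In limma, 0 genes were called and the number with an unadjusted p under 0.05 was 2 of 35 for interferon-stimulated genes, 3 of 19 for hematopoietic stem and progenitor genes, 3 of 24 for white pulp chemokine and stromal genes, 5 of 18 for circadian clock genes, 1 of 16 for mesothelial genes and 3 of 19 for the genes that the study names. Of the 19, 7 differed among the arms, against 10.2% of all genes, and 4 were lower without the B+A10-FMT arm. Of the megakaryocyte genes 1 of 22 was called (Fli1, lower), of the nuclear respiratory chain genes 2 of 75 (Ndufv2 and Atp5l, higher, with 8 higher under median-of-ratios scaling and 10 without the B+A10-FMT arm), of the cytosolic ribosomal protein genes 1 of 79 (Rps27, lower), of the monocyte genes 3 of 19 (all lower, Ace and Ccr2 among them) and of the red pulp macrophage and iron genes 3 of 25 (Blvra and Blvrb higher, Stab2 lower). In the Bcl2 family, Bmf, a promoter of cell death, was lower (-0.39) and Bcl2l1, a survival factor, higher (0.24), each among 17 tested. The rest of the lists had between 1 and 3 calls each, in Siglech, Tcf4 and Irf8 of the dendritic list, Cd55, Tlr6 and Ly96 of the Toll-like receptor and complement list, Klf2 and Jun of the immediate early list, Nid1 of the matrix list (of whose 43 genes 13 differed among the arms and 9 were lower without the B+A10-FMT arm), Scd1 of the adipocyte list, Gstm5 of the glutathione list, Sec11c and Tnfrsf13b of the plasma cell list, Cdkn1a again of the glucocorticoid list and Hbb-b1 of the globin list.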

How the data were processed

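Spleen RNA of 12 mice was measured in 4 groups of 3, assigned by the agent in the labels. The authors enriched polyadenylated RNA, mapped the reads and deposited RPKM values for 60654 RefSeq transcripts per mouse. Their methods name SOAPaligner 2.20, while the labels list HISAT, Bowtie2 and mm10, and the annotation release is not given in the sources used here. Transcripts were summed to 18221 genes, of which 18101 matched a RefSeq symbol. The plan named limma for RPKM and it was used (limma 3.58.1, R 4.3.3, trend and robust settings) on log2(RPKM + 1) with all 12 mice and group as the only factor. The pooled contrast was the mean of the 3 busulfan arms minus Con-sa, the arms were also contrasted singly with Con-sa, and an F test compared them with each other. All tests were two-sided with Benjamini-Hochberg adjustment over 12671 genes. Single genes had exact permutation tests of 9 against 3 mice. Python 3.11.15 with pandas 2.3.3 and matplotlib 3.10.9 made tables and figures, and the fits were tested on simulated data.

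Named genes were those called in each of the 3 arms, the 12 higher and 12 lower called genes of largest change without overlap and with a mean RPKM of at least 1, up to 4 called members and the most abundant member of each of 36 lists, and those that the study names. Other genes in the text were picked with their values known. Not every gene that meets these rules is reported here. The members and lists were chosen with earlier results of these data known, so no count of list members is independent evidence. No depth is given with the RPKM, so no counting interval can be given. The DEGseq test of the study was not run. The tables hold no column of the authors' own comparisons. The replicate numbers in the titles belong to different mice in each group. The alternatives were a pseudocount of 0.1, other filters and scalings, a replicate block, 2 groups in place of 4, each arm or mouse left out, single transcripts, removal of length and GC trends, plain limma and the threshold of the study (adjusted p of at most 0.001 and an absolute log2 fold change of at least 1).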

Additional observations from a re-analysis of the deposited data

Results flagged for a closer look

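In 5 of 99 genes checked, 1 of the 9 busulfan mice stood apart from the others, with a gap to its neighbour of more than 0.493 of the range. Chance flags about 1 in 20 groups. Klrb1b was highest in B+A10-FMT replicate 3 (2.41 RPKM, next 1.5, ratio 0.723). Cd209d was lowest in B+Con-FMT replicate 2 (1.02 RPKM, next 2.47, ratio 0.63), as was Klra3 (0.23 RPKM, next 0.53, ratio 0.535). Fanca was lowest in B+Con-FMT replicate 1 (5.84 RPKM, next 7.03, ratio 0.589), and Ndufv2 in B+A10-FMT replicate 3 (44.0 RPKM, next 53.2, ratio 0.564).

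In 23 of the 99 called genes checked, out of 197 such genes among all called, the 3 busulfan arms differed from each other by limma's F test. For the chaperone genes Stip1, Ahsa1, Hsp90aa1 and Hspd1 the adjusted p was 0.000253, 0.000467, 0.000474 and 0.00159, and B+Con-FMT was the highest arm. For Nid1, a basement membrane protein (0.00129), Stab2 (0.00184), Ptprb (0.00578) and Ramp2 (0.048), B+A10-FMT was the arm nearest to Con-sa. The same was so for Siglech (0.00117), Klri2 (0.00373), Cd55 (0.00705), Ace (0.0121), Ccr2 (0.023), Tlr6 (0.0402) and Bmf (0.0492). Kap (0.015) and Miox (0.0251) had B+Con-FMT as the arm nearest to Con-sa. Gm14295 (0.0172) and Gm4724 (0.0474) had B-sa as the nearest. Among the higher genes, Sec11c (0.00823), Atp5l (0.0231), Pcna (0.0404) and Sphk1 (0.0418) were nearest to Con-sa in B+A10-FMT.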

How the results depend on the processing

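Of the 237 higher and 534 lower genes, 4 and 21 in each arm and 197 differing among the arms, no count kept within 1.5 times under every alternative. None of 99 called genes checked singly changed direction under these alternatives, and other genes named in the text were not checked. Median-of-ratios scaling gave 480 higher genes. Treating the 9 busulfan mice as 1 group gave 18 higher and 76 lower genes. Without the B-sa arm there were 56 higher, 186 lower and 75 differing genes, without the B+Con-FMT arm 146, 242 and 53, and without the B+A10-FMT arm 456, 1163 and 33, with 76 higher and 338 lower in each arm. Single transcripts gave 9, 29, 0 and 1 in each arm, and 4 differing. The threshold of the study gave 0 higher and 2 lower genes and 0 in each arm. Without a filter, 2 higher and 33 lower genes were called in each arm and 127 differed. With RPKM of at least 1 in all 12 mice, 2 and 11 were called in each arm. That filter leaves out genes that fall below an RPKM of 1 in any mouse, and 14 of the 25 genes stayed called in the comparison of the 9 mice. A pseudocount of 0.1 gave 12 lower in each arm, and equal totals outside the globin genes 308 differing genes. Where not stated, the cause was not tested.

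Leaving out 1 mouse gave 24 to 360 higher and 98 to 756 lower genes, 0 to 5 and 1 to 27 in each arm, and 36 to 396 differing genes. Besides the Con-sa mice, leaving out B-sa replicate 1 (360 higher), B+Con-FMT replicate 3 (149 higher), B+A10-FMT replicate 1 (140 higher, 332 lower, 1 lower in each arm) B+A10-FMT replicate 2 (142, 346 and 8) and B-sa replicate 2 (13 lower in each arm) moved the counts of higher genes, lower genes or genes lower in each arm by more than 1.5 times. Of 99 called genes checked singly, 42, 40 and 54 stayed called without Con-sa replicate 1, 2 and 3, and 39 with the 9 mice as 1 group. With the replicate block there were 141 higher and 347 lower genes, 1 higher and 24 lower in each arm and 100 differing genes, and 79 of the 99 genes stayed called. Deviations of mice with the same number correlated from -0.373 to 0.303 (18 pairs) and with different numbers from -0.432 to 0.512 (36 pairs). These ranges overlap and cannot show whether the numbers mark mice handled together. Without counts, depth limits cannot be stated for single genes, and 3 Con-sa mice limit every comparison.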
